A study of Mus musculus with 4 samples.

Results

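The genes described here belong to 4 families of the cilium and the centrosome: intraflagellar transport genes (Ift), Bardet-Biedl syndrome genes (Bbs), centrosomal protein genes (Cep) and cilia- and flagella-associated protein genes (Cfap). Members were taken by symbol, as every gene name made of one of these 4 prefixes and a number, with Cfap126 left out by rule. They numbered 79 of the 31017 gene names in the count tables, with 14 Ift, 8 Bbs, 32 Cep and 25 Cfap genes. Bulk RNA sequencing was done on wild-type mouse beta cells, the insulin-secreting cells of the pancreatic islet, from 10-week-old C57BL/6J males. After overnight islet culture and trypsin dissociation, the cells were sorted by flow cytometry into CD63 high and CD63 low cells, with 2 libraries each. CD63 is a tetraspanin of late endosomes and secretory vesicles. The labels do not say whether the 2 libraries of a group came from separate mice or sorts, so the p-values measure only the spread between these libraries.

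Most islet endocrine cells carry a single primary cilium, an antenna of microtubules that grows from the mother centriole of the centrosome. Kinesin-2 motors move the IFT-B complex and its cargo to the tip, and dynein-2 motors with the IFT-A complex bring them back. The BBSome, a coat made of Bbs proteins and their partners, carries membrane receptors out of and into the cilium. Loss of Ift88 in beta cells, and loss of Bbs4, impair insulin secretion in mice. Many Cep proteins build or anchor the centriole, whereas many Cfap proteins belong to the axoneme of motile cilia and sperm tails.

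Depth and sort were checked first. Total counts were 30436845 and 29249270 in the CD63 high libraries, against 32953539 and 35003307 in the CD63 low libraries. Levels are in CPM (counts-per-million), scaled by TMM, a correction for library composition, and 1 CPM stood for 31.3 and 27.7 counts in the CD63 high libraries, against 30.4 and 39 in the CD63 low ones. Cd63 itself stood at 1973 and 2076 CPM in CD63 high libraries, against 1186 and 1120 CPM in CD63 low libraries, a log2 fold change of 0.81 (SE 0.188, adjusted p = 0.0484 by edgeR's quasi-likelihood test). Of 9 beta cell markers all were detected and 2, Mafa and Slc2a2, were called lower in CD63 high cells. The 9 had a median log2 fold change of -0.55, with 6 estimates below 0 and 3 above. Of other cells, 3 of 3 delta and 3 of 3 gamma cell markers tested were called higher. Acinar cell markers summed to 811.4 and 1379 CPM in CD63 high cells, against 22.77 and 306.6 CPM in CD63 low libraries. Of 10 tested, 3 were called higher and 10 had estimates above 0. Called were 0 of 3 endothelial and 0 of 2 Schwann cell markers. The endothelial estimates, 2 above 0 and 1 below, had a median log2 fold change of 2.69 with a median SE of 1.124. Alpha cell markers summed to 5401 and 6094 CPM in CD63 high cells, against 459.6 and 507.2 CPM in CD63 low libraries, and 2 of 7 tested markers were called higher. Macrophage markers summed to 160.5 and 576.3 CPM in CD63 high cells, against 27.18 and 39.68 CPM in CD63 low libraries, with 11 of 12 called higher. Duct and multiciliated epithelial markers summed to 3242 and 1969 CPM in CD63 high cells, against 1192 and 1157 CPM in CD63 low libraries. Of 8 tested, 1 was called higher and 6 had estimates above 0, with a median log2 fold change of 0.6. Cftr, a duct gene, had no read in any library, whereas Sox9, also on this list, had reads in CD63 high cells only. Foxj1, the master factor of motile cilia, had 0 and 0 counts in CD63 high and 1 and 0 counts in CD63 low libraries. The part of these other cells in the values below was not tested.

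None of the members was called between CD63 high and CD63 low cells. Of the 79, 63 passed the filter on low counts and were tested, and 0 of them reached an adjusted p under 0.05 in either direction by edgeR's quasi-likelihood test, and likewise 0 by DESeq2 and 0 by limma-voom. Across all 13241 genes tested, 2.79% were called, 2.5% as higher and 0.287% as lower. At an unadjusted p under 0.05 there were 4 of the 63 tested members, Bbs9, Ift88, Cep70 and Bbs4, all lower in CD63 high cells. Of all genes 14.9% passed that threshold (5.96% lower and 8.95% higher). The members' share was thus below the 14.9% of all genes and close to the 5.96% that were lower. The design limits what could be seen, since the median SE was 0.341 on the log2 scale for members and 0.297 for all genes. The 95% interval lay within a 2-fold change either way for 24 of 63 members. For 32 the interval reached a 2-fold or greater decrease, and for 16 a 2-fold or greater increase.

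Below the threshold, the estimates leaned one way. The log2 fold change, CD63 high over CD63 low, was below 0 for 46 of 63 members (73%), against 51.4% of all genes tested. Its median was -0.24 for the members and -0.01 for all genes. Both CD63 high libraries lay below both CD63 low libraries for 23 members (36.5%), against 22.2% of all genes. The opposite order held for 4 members, against 23.8% of all genes, and the 2 orders together took 42.9% of members and 46% of all genes. Members' median deviation from their own mean was -0.14 and -0.02 on the log2 scale in CD63 high replicates 1 and 2, against 0.08 and 0.14 in CD63 low replicates 1 and 2. These counts describe genes measured in the same 4 libraries, and no test was run over the list. In bulk libraries such as these, fewer cells of a type and less RNA per cell cannot be told apart.

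**Figure D1:**
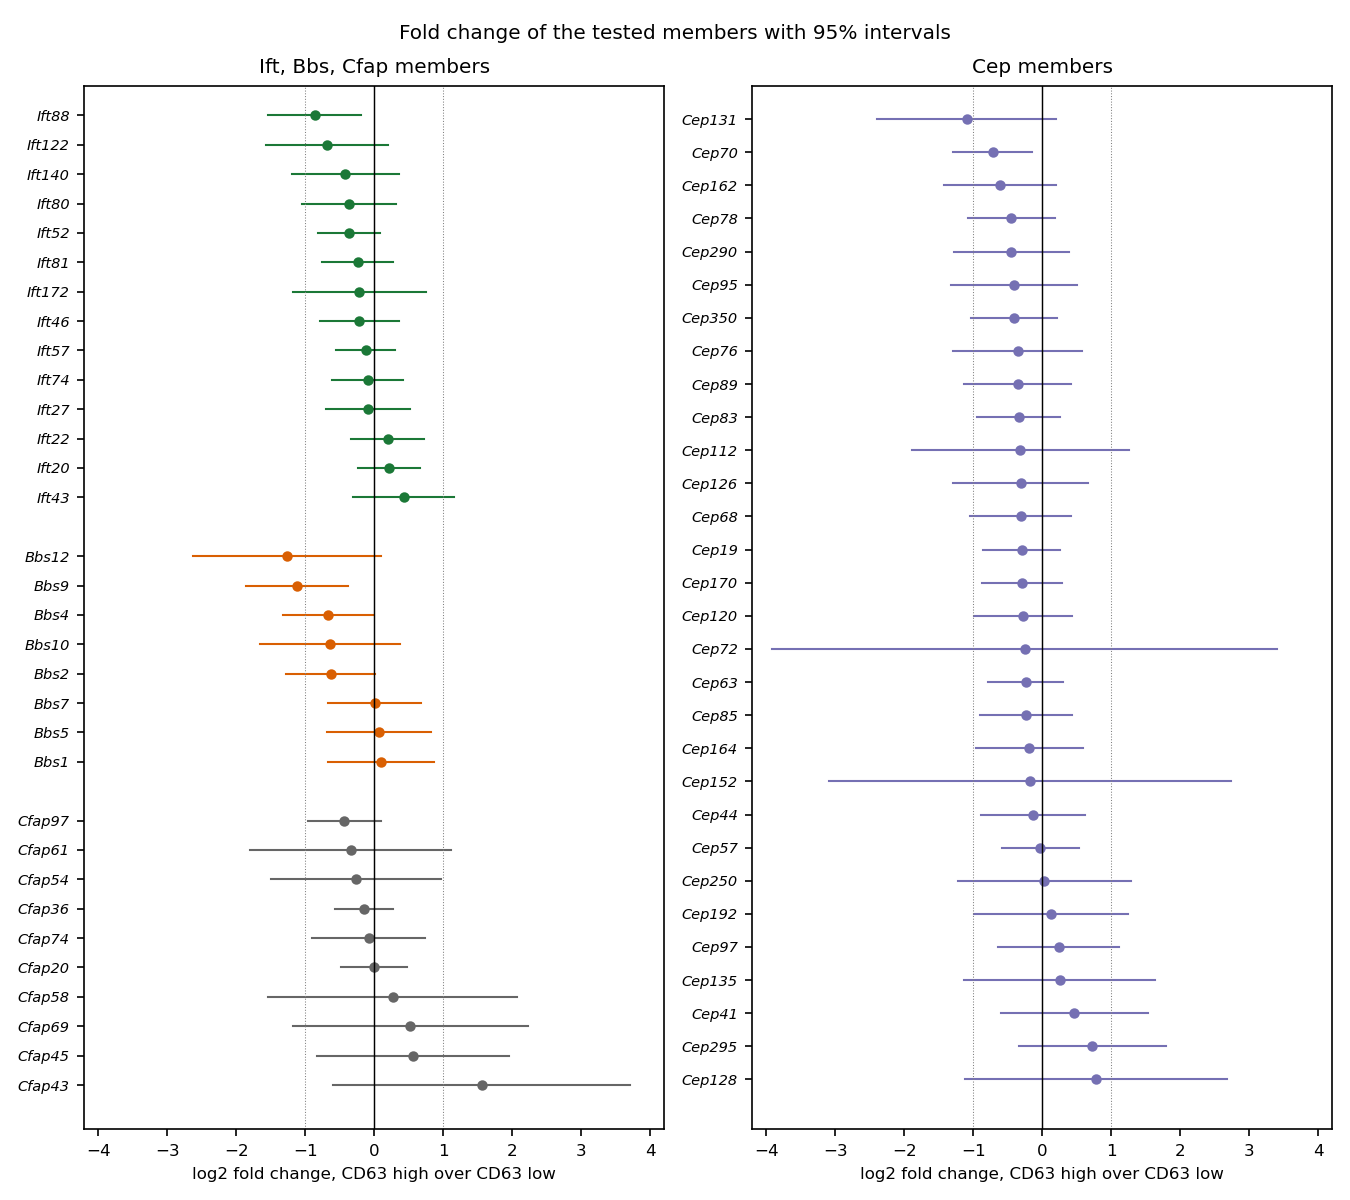
Log2 fold change of the tested members, CD63 high over CD63 low, grouped by family; bars are 95% intervals, dotted lines mark a 2-fold change and no point passed an adjusted p of 0.05. Most points lie below 0, and the intervals of Bbs9, Ift88, Cep70 and Bbs4 lie wholly below 0.

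Summed over a family, Bbs, Cep and Ift transcripts were fewer in both CD63 high libraries, and the gap was narrow for Ift. Bbs genes summed to 41.95 and 50.4 CPM in CD63 high libraries, against 60.39 and 65.26 CPM in CD63 low libraries. Cep genes summed to 210.8 and 202.3 CPM in CD63 high cells, against 239.1 and 270.1 CPM in CD63 low libraries. Ift genes summed to 388.7 and 396.6 CPM in CD63 high cells, against 419.8 and 402.2 CPM in CD63 low libraries. Cfap genes summed to 171.9 and 181.4 CPM in CD63 high cells, against 200.8 and 180.2 CPM in CD63 low libraries, which overlapped. Cfap36 and Cfap20 made up most of the Cfap sum.

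Per kilobase of exon, the members were mostly low, with a median of 0.947 CPM per kilobase over the 63 tested, against 2.32 CPM per kilobase over all genes tested. The highest was Ift20, an IFT-B subunit that also sits at the Golgi, at 82.2 CPM per kilobase. It was followed by Cfap36, a binding partner of the small GTPase Arl3, at 32.4, and by Ift57, an IFT-B subunit, at 29.8 CPM per kilobase. Cfap36 and Ift57 overlapped in level, since Cfap36 ran from 30.2 to 34.3 and Ift57 from 26.9 to 31.9 CPM per kilobase over the 4 libraries. Next stood Ift52 and Cfap20, both at 14.0 CPM per kilobase, and Cep19, a ciliary protein linked to obesity in mice, at 11.2 CPM per kilobase. The Bbs genes were lower, led by Bbs2 at 3.42 and Bbs5 at 2.26 CPM per kilobase, and Bbs12 was the lowest of them at 0.671. Apart from Cfap36 and Cfap20, most Cfap genes were among the lowest. Of the 25, 15 did not pass the filter, and 3 of them (Cfap99, Cfap161 and Cfap221) had no read in any library, which allows up to 0.0957 and 0.108 CPM in CD63 high cells, against 0.0988 and 0.077 CPM in CD63 low libraries (3 counts). Cep55, a protein of the midbody in dividing cells, was the remaining untested member and also had no read. Any read at all was found for 70 and 71 members in the CD63 high libraries, against 71 and 73 in the CD63 low ones.

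**Figure D2:**
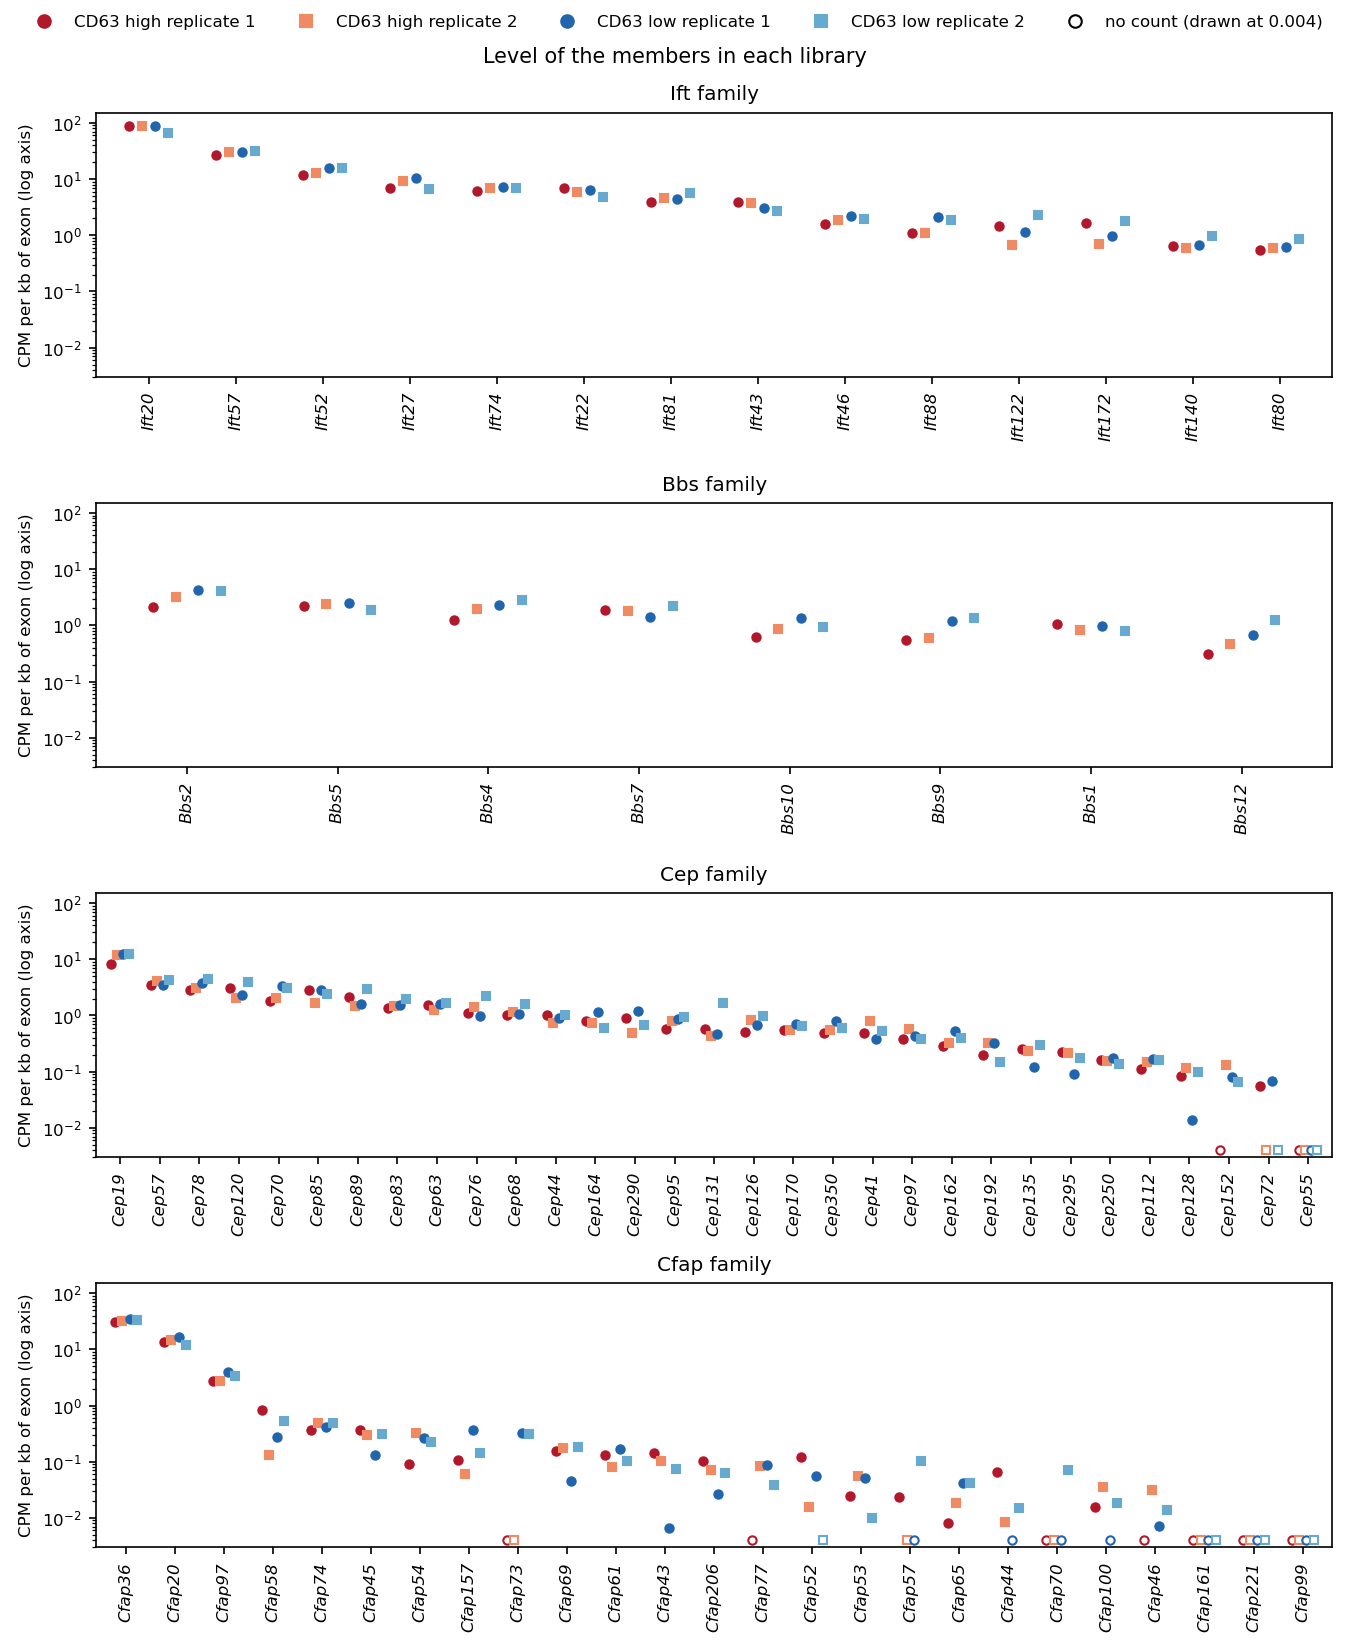
Level of the members in each library, in CPM per kilobase of exon on a log axis, by family; each point is 1 library, CD63 high left of CD63 low, and open symbols mark no count. Ift20, Cfap36 and Ift57 stand at the top, and most Cfap genes lie at the bottom or at 0.

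The Ift family held the member with the highest level, Ift20, and 11 of its 14 genes had an estimate below 0, with a median log2 fold change of -0.22. Ift88, a core IFT-B subunit that cilia need to form, had 5.17 and 5.02 CPM in CD63 high libraries, against 9.82 and 8.73 CPM in CD63 low libraries. The gene (mm10, chr14:57424062-57517936) did not overlap between groups, with a log2 fold change of -0.86 (SE 0.305, 95% interval -1.54 to -0.19), but the adjusted p was 0.194 by edgeR's quasi-likelihood test. Ift52, another core IFT-B subunit, had 32.5 and 36.4 CPM in CD63 high cells, against 44.1 and 44.4 CPM in CD63 low libraries, a log2 fold change of -0.36 (SE 0.203). Its adjusted p of 0.458 by the same edgeR test left it uncalled, although the groups did not overlap. The 11 IFT-B genes ran from -0.86 to 0.22 with a median of -0.22. Ift20 had 135.5 and 134.2 CPM in CD63 high cells, against 132 and 99.9 CPM in CD63 low libraries, so CD63 low replicate 2 alone stood apart. Ift57 had 77.0 and 86.4 CPM in CD63 high cells, against 86.5 and 91.4 CPM in CD63 low libraries, nearly level. Ift80 was the lowest Ift gene per kilobase, at 0.651 CPM per kilobase, and had a log2 fold change of -0.37.

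Estimates of the 3 IFT-A genes did not share a sign, and their intervals overlapped. Ift122, a core subunit of retrograde transport, had 14.8 and 6.93 CPM in CD63 high cells, against 11.7 and 23.3 CPM in CD63 low libraries. Its groups overlapped, and the log2 fold change of -0.68 carried an SE of 0.40 and a 95% interval of -1.57 to 0.20. Leaving out CD63 high replicate 1 took it to -1.34 (SE 0.40, adjusted p = 0.0264 by edgeR), and leaving out CD63 low replicate 2 took it to -0.09. Ift43, a small IFT-A subunit, went the other way, with 6.57 and 6.10 CPM in CD63 high cells, against 5.01 and 4.41 CPM in CD63 low libraries. Its log2 fold change was 0.43 (SE 0.331, 95% interval -0.30 to 1.16) with no overlap between groups and no call. Ift43 has a short exon length, 1651 bases, and its estimate was 0.20 with the length trend described further on taken out. Ift140 had a log2 fold change of -0.42. Ift122, Ift172 and Cfap58 were among the members with a pattern across libraries in which CD63 high replicate 1 exceeded replicate 2 and CD63 low replicate 2 exceeded replicate 1, each by at least 1.5-fold. That pattern took 4 of 63 members (6.35%) and 4% of all genes tested.

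The Bbs family had the lowest median, -0.63 over its 8 genes, and split into 5 with estimates of -0.63 or lower and 3 near 0. The family median was -0.36 without CD63 high replicate 1, where Bbs4 stood at -0.37 and Bbs2 at -0.35, and -0.93 without CD63 high replicate 2. In the full fit the 6 BBSome subunits alone had a median of -0.31, with 3 below 0. The 2 assembly genes, Bbs10 and Bbs12, had -0.95. Of BBSome subunits with other symbols, Ttc8 stood at -0.13 and Bbip1 at 0.32. Bbs9, a scaffold subunit of the BBSome, had 3.41 and 3.79 CPM in CD63 high libraries, against 7.31 and 8.29 CPM in CD63 low libraries. That was the smallest p of any member, with a log2 fold change of -1.12 (SE 0.333, 95% interval -1.85 to -0.38) and an adjusted p of 0.119 by edgeR's quasi-likelihood test. The gene lies at chr9:22475715-22888280 (mm10). Bbs4, a BBSome subunit of tetratricopeptide repeats (chr9:59321990-59353508), had 7.47 and 11.95 CPM in CD63 high cells, against 14.0 and 16.8 CPM in CD63 low libraries. Its log2 fold change was -0.67 (95% interval -1.32 to -0.01, adjusted p = 0.324 by edgeR). Bbs2, a beta-propeller subunit, had 7.02 and 10.8 CPM in CD63 high cells, against 14.1 and 13.4 CPM in CD63 low libraries, at -0.63 (95% interval -1.27 to 0.02). For all 3 the libraries of the groups did not overlap. The chaperonin-like genes Bbs10 and Bbs12, which help assemble the BBSome, also stood lower without overlap. With 2 libraries per group such an order, CD63 high below, held for 22.2% of all genes tested. Bbs12 had 0.766 and 1.16 CPM in CD63 high cells, against 1.61 and 3.003 CPM in CD63 low libraries, at -1.27 with an SE of 0.617. Bbs10 had 1.88 and 2.64 CPM in CD63 high cells, against 4.15 and 2.87 CPM in CD63 low libraries, at -0.64.

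The other 3 BBSome genes were level. Bbs5, a subunit that binds membrane lipids, had 5.46 and 5.89 CPM in CD63 high cells, against 6.16 and 4.62 CPM in CD63 low libraries, a log2 fold change of 0.07 (95% interval -0.68 to 0.83). Bbs1 stood at 0.10 (95% interval -0.67 to 0.87) and Bbs7 at 0.01 (95% interval -0.66 to 0.68). All 3 intervals lay within a 2-fold change either way. The difference between these 3 and the other 5 was seen in the same 4 libraries that gave the values and was not tested.

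**Figure D3:**
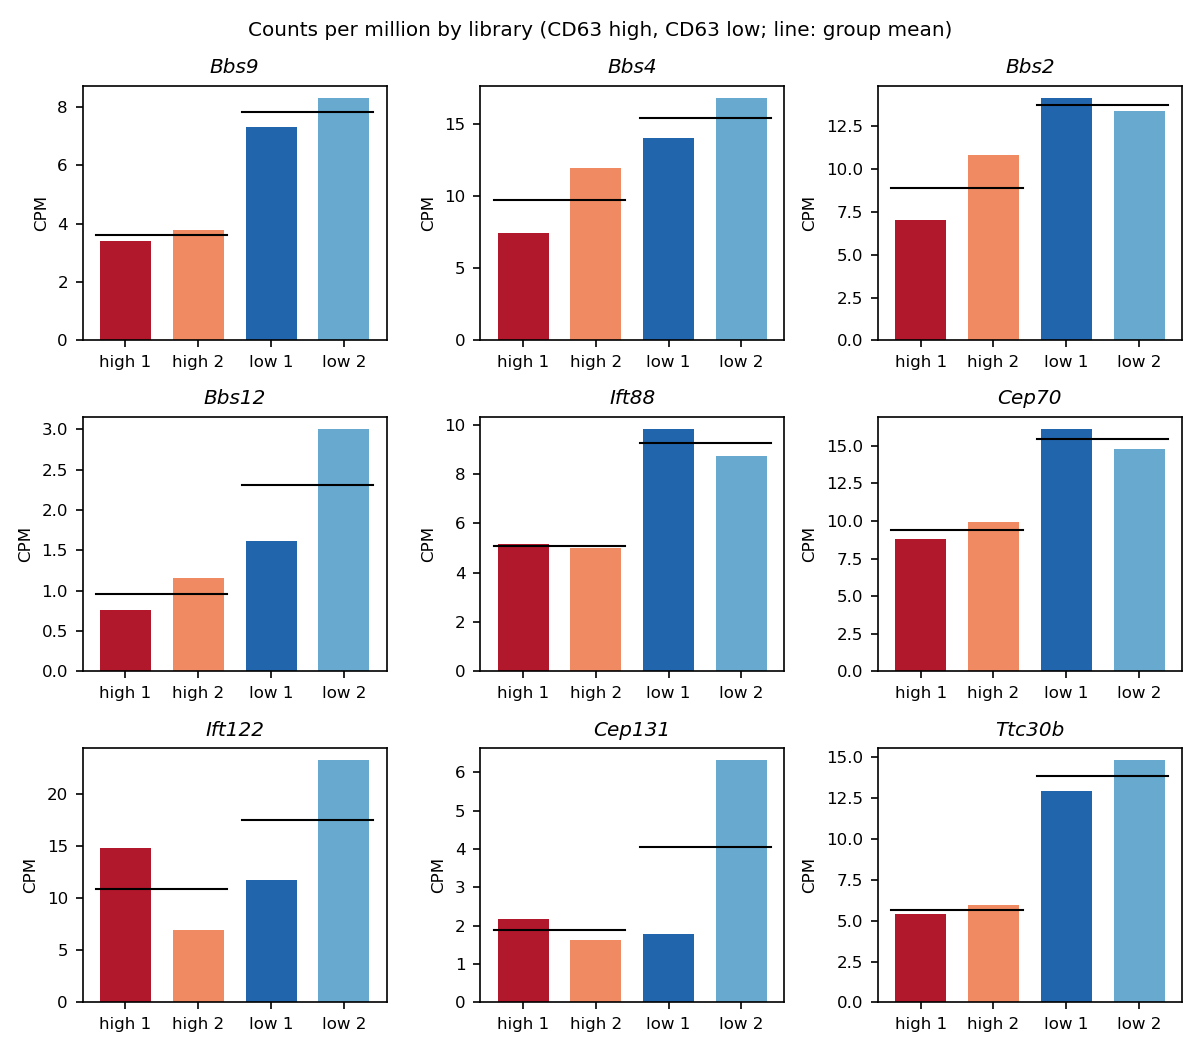
Level in CPM of 8 members and of the IFT-B gene Ttc30b, described further on; each bar is 1 library, CD63 high to the left of CD63 low, and the line is the group mean. Bbs9, Bbs4, Bbs2, Bbs12, Ift88 and Cep70 lie lower in both CD63 high libraries than in either CD63 low library, whereas Ift122 and Cep131 overlap.

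Promoters were read from RefSeq (GRCm38.p6), from 250 bases before to 50 bases after each start site, and 65 of the 79 members matched, in 72 windows. The motif searched first was the X-box bound by RFX factors, which drive ciliary genes. Its letters are GTTNCC, then any 3 bases, then GNAAC, sought on both strands. It occurred in 6 of 72 member windows (8.33%), against 264 of 32817 windows of all genes (0.804%). These 6 are shown with the match in capitals, in 30 bases at chr3:36613489-36613518 (minus strand), chr11:108425018-108425047, chr16:32099803-32099832, chr16:44394764-44394793, chr1:172521103-172521132 and chr2:145934768-145934797, the last 5 in windows on the plus strand. For Cfap44 and Cfap45 the letters given match on the reverse strand, so the capitals show their reverse complement. They are the members whose promoters hold a whole X-box of these letters.
Bbs7: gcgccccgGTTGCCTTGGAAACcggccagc
Cep112: actagacaGTTACCATAGCAACggagctgc
Cep19: agccttctGTTGCCTTGGGAACgatcctcg
Cfap44: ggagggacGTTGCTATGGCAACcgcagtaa
Cfap45: gttcttggGTTGCTATGGTAACgcgtcagc
Cfap61: gccgcgtcGTTTCCTTAGCAACtgtgtgcg

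The same 6 genes did not share a direction. Their log2 fold changes were 0.01 for Bbs7, -0.32 for Cep112, -0.30 for Cep19, 0.57 for Cfap45 and -0.34 for Cfap61, and Cfap44 was too low to test. The half-site GTTGCC, on either strand, can lie inside an X-box, and 4 windows held both motifs. It occurred in 24 of 72 member windows (33.3%), against 12.5% of all windows. Tested members with a half-site had a median log2 fold change of -0.06 (18 genes, 11 below 0). Tested members with promoters lacking it had a median of -0.29 (35 genes, 26 below 0). Over all genes tested the 2 medians were -0.05 with a half-site and -0.01 without.

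By family, the difference by half-site had no single sign. In the Bbs family the 3 level genes, Bbs1, Bbs5 and Bbs7, were the 3 with a half-site, and the 5 without ran from -1.27 to -0.63. In the Ift family the order was the other way, with a median of -0.22 for 5 genes with a half-site, Ift88 among them, and 0.05 for 6 without. The Cfap family went the same way as Ift, at -0.01 for 3 genes with a half-site and 0.52 for 5 without. Median values were -0.03 with and -0.31 without in the Cep family (7 and 19 genes). The half-sites of the 3 level Bbs genes and of Ift88 are shown in capitals, because the Bbs genes were level and Ift88 was among the lowest estimates. They lie at chr19:4906609-4906638 (minus strand), chr2:69647201-69647220, chr3:36613493-36613522 (minus strand) and chr14:57424080-57424109, and the Ift88 match is on the reverse strand.
Bbs1: atggctgagctgGTTGCCaaggcgacgcct
Bbs5: caaagccggcgcGTTGCCtt
Bbs7: gaatgcgccccgGTTGCCttggaaaccggc
Ift88: ggagtcgcgcctGGCAACggctgggcgtcc
The motifs were chosen with the fold changes known, and a match shows only that the letters are there. Member windows were also richer in G and C, with a median of 60.0% against 52.4% over all windows.

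Among the Cep genes, 24 of 31 tested had an estimate below 0, with a median of -0.29. Cep70, which binds gamma-tubulin and organises microtubules (chr9:99243367-99300404), had 8.84 and 9.93 CPM in CD63 high libraries, against 16.1 and 14.8 CPM in CD63 low libraries. Its log2 fold change was -0.72 (SE 0.256, 95% interval -1.29 to -0.15) and its adjusted p 0.198 by edgeR's quasi-likelihood test. Cep70 thus separated the groups in every library and was not called. Cep131, a centriolar satellite protein, had 2.17 and 1.63 CPM in CD63 high cells, against 1.78 and 6.31 CPM in CD63 low libraries. CD63 low replicate 2 alone was high for Cep131, and the log2 fold change of -1.10 became 0.11 without that library and -1.73 (SE 0.53, adjusted p = 0.0453 by edgeR) without CD63 low replicate 1. Cep162, an axoneme-binding protein of the transition zone, had 3.38 and 3.76 CPM in CD63 high cells, against 6.23 and 4.70 CPM in CD63 low libraries, at -0.61 without overlap.

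By role, each tested group of Cep genes had a median below 0. The 3 distal appendage genes Cep83, Cep89 and Cep164, which dock the centriole at the membrane, had a median log2 fold change of -0.34. The 9 genes of centriole assembly and duplication had -0.13, and the 6 of subdistal appendages and centriole cohesion had -0.30. The 7 genes of satellites, transition zone and axoneme, Cep290 and Cep131 among them, had the lowest median of these, -0.45. Cep19 had 14.4 and 20.8 CPM in CD63 high cells, against 21.3 and 22.0 CPM in CD63 low libraries, at -0.30. The lowest tested was Cep72, with 14 and 0 counts in CD63 high and 17 and 0 counts in CD63 low libraries, too few to give a direction. Markers of dividing cells, in which centrosome genes are also used, summed to 11.4 and 7.37 CPM in CD63 high cells, against 4.38 and 3.28 CPM in CD63 low libraries. All 8 tested had estimates above 0, with a median log2 fold change of 1.63 (median SE 1.208), and 0 were called. The part of dividing cells was not tested.

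Most Cfap genes gave little to compare. Of the 10 tested, 6 had an estimate below 0, with a median of -0.04. Cfap97 had 14.3 and 13.9 CPM in CD63 high cells, against 20.5 and 17.5 CPM in CD63 low libraries, and Cfap36 had 82.9 and 86.0 CPM in CD63 high cells, against 94.0 and 92.9 CPM in CD63 low libraries. Both separated the groups, at -0.43 and -0.15, and neither was called. Cfap20, a protein inside the microtubule wall of the axoneme, had 59.2 and 65.3 CPM in CD63 high cells, against 72.4 and 52.6 CPM in CD63 low libraries, an overlap with a log2 fold change of -0.01. Cfap43, a tether of the motile axoneme, had the highest estimate of any member, 1.56, but it rested on 45 and 28 counts in CD63 high and 2 and 29 counts in CD63 low libraries (SE 0.974, 95% interval -0.60 to 3.71). Cfap45, a microtubule inner protein, stood at 0.57 (95% interval -0.83 to 1.96).

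Of the untested Cfap genes, those with the most reads were Cfap157, Cfap65 and Cfap44. Cfap157 had 6 and 3 counts in CD63 high and 20 and 10 counts in CD63 low libraries, a total of 39. Cfap65 had 2 and 4 counts in CD63 high and 10 and 13 counts in CD63 low libraries. Both had more reads in each CD63 low library, whereas Cfap44 had 17 and 2 counts in CD63 high and 0 and 5 counts in CD63 low libraries. Cfap73 had no read in CD63 high and 9 and 11 counts in CD63 low libraries. Against a floor of 3 counts over the group that was 5.68-fold lower in CD63 high cells. This ratio leaves out the error of the CD63 low counts and is no lower bound. With no filter the SE for Cfap73 was 2.94 on the log2 scale. Its adjusted p was 0.295 by edgeR when no filter was set.

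Exon length was set beside the fold changes, because over all genes long genes leaned lower in CD63 high cells. In 4 equal groups by exon length, bounded at 2555, 4201 and 6534 bases, the median log2 fold change of all genes was 0.18, 0, -0.11 and -0.13 in order of length. For the members it was -0.11 (6 genes), -0.15 (13), -0.28 (21) and -0.24 (23). Tested members were long, with a median of 5717 bases of exon against 4201 for all genes tested. In each group of length the members' median lay below that of all genes. Estimates were below 0 for 3 of 6, 11 of 13, 17 of 21 and 15 of 23 members in order of length. The shares of all genes were 32.1%, 50.4%, 59.9% and 63.1%, so in the longest group members and all genes were close. Across all 13241 genes the Spearman correlation of length and fold change was -0.244, and across the 63 members it was 0.063, both over genes of the same 4 libraries and given as descriptions. With a smooth length trend taken out of the counts the members' median was -0.22 and that of all genes -0.06.

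**Figure D4:**
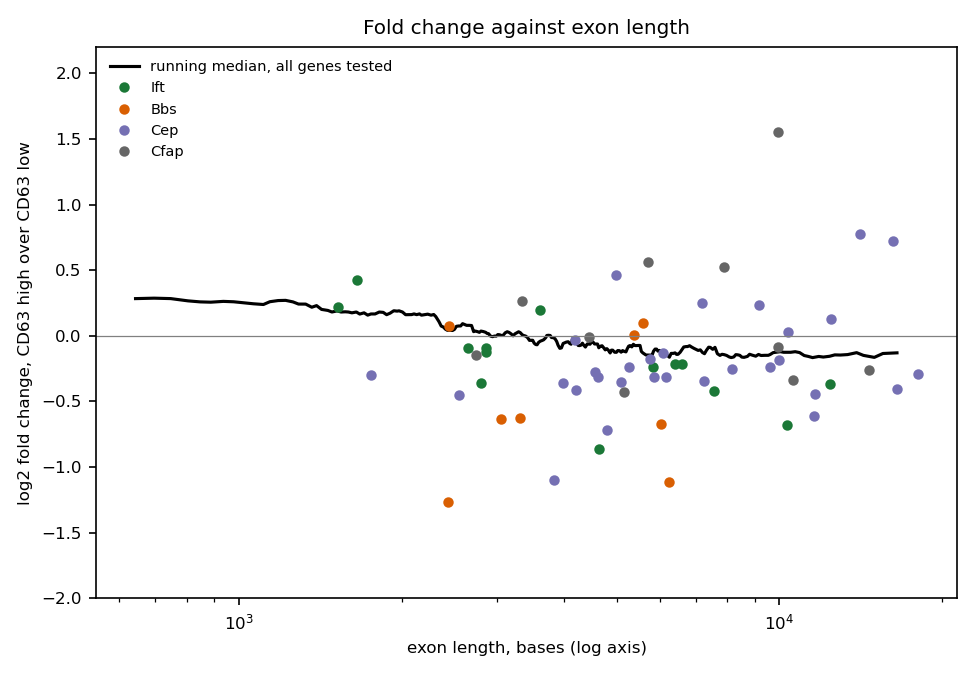
Log2 fold change of the tested members, CD63 high over CD63 low, against exon length in bases on a log axis; points are members coloured by family, and the line is the running median of all genes tested. The line slopes down with length, and the members' median lies below that of all genes in each of the 4 groups of length. In the longest group the shares of estimates below 0 were close for members and all genes.

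The other genes of the pathway held 1 call. Of 145 further cilium and centrosome genes in the tables, 113 were tested, 0 were called higher and 1 lower, with 74 estimates below 0 (65.5%) and a median of -0.13. The called gene was Ttc30b, which encodes the IFT-B subunit IFT70, with 5.39 and 5.96 CPM in CD63 high libraries, against 12.9 and 14.8 CPM in CD63 low libraries. Its log2 fold change was -1.29 (SE 0.282, 95% interval -1.91 to -0.67, adjusted p = 0.0370 by edgeR's quasi-likelihood test). The value is uncertain, because Ttc30a1 and Ttc30a2 are near-identical copies whose shared reads may be lost or split. Ttc30a1 had 3.80 and 3.76 CPM in CD63 high cells, against 3.36 and 3.59 CPM in CD63 low libraries, and Ttc30a2 had no read. The call was kept in 10 of 15 other settings and lost without either CD63 high library (adjusted p = 0.0751 and 0.0522) or without CD63 low replicate 2 (adjusted p = 0.0821), by the same edgeR test. It was also lost with scaling by library size only (adjusted p = 0.122 by edgeR) and with limma-voom (adjusted p = 0.05004). The log2 fold change stayed between -1.36 and -1.17 in these 5 settings.

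List by list, the remaining pathway genes had medians between -0.20 and 0.00, and none of these lists was tested against the members. The IFT and BBSome genes under other symbols had a median log2 fold change of -0.16 (16 tested, 12 below 0), and the motors of transport had 0.00 (10 tested, 5 below 0). Dync2h1, the heavy chain of dynein-2, had 8.81 and 11.4 CPM in CD63 high cells, against 20.1 and 14.8 CPM in CD63 low libraries, at -0.79 (adjusted p = 0.188 by edgeR). Transition zone genes, the gate at the base of the cilium, had -0.20 (20 tested, 15 below 0). Tmem231, a membrane protein of that gate, had 18.1 and 21.6 CPM in CD63 high cells, against 32.4 and 30.5 CPM in CD63 low libraries, at -0.66 (adjusted p = 0.168 by edgeR). Other centriole genes had -0.12 (31 tested, 22 below 0). Crocc, which encodes the rootlet protein rootletin, had 3.35 and 3.32 CPM in CD63 high cells, against 6.66 and 7.26 CPM in CD63 low libraries, at -1.06 (adjusted p = 0.15 by edgeR). Membrane and signalling genes had a median of -0.13 (14 tested, 8 below 0). Pkd1, a large ciliary membrane receptor, had 29.8 and 22.4 CPM in CD63 high cells, against 39.5 and 37.1 CPM in CD63 low libraries, at -0.55 (adjusted p = 0.279 by edgeR). Motile cilium genes had -0.07 (16 of 38 tested, 9 below 0), and 7 of the 22 untested, the dynein genes Dnah5 and Dnah6 among them, had no read. Rsph1, a radial spoke gene, had 18.9 and 13.6 CPM in CD63 high cells, against 7.97 and 9.78 CPM in CD63 low libraries, at 0.87 (adjusted p = 0.147 by edgeR). The RFX genes had -0.09 (6 tested, 3 below 0). Rfx6, an islet factor, had 33.8 and 22.6 CPM in CD63 high cells, against 38.4 and 44.1 CPM in CD63 low libraries, at -0.55, whereas Rfx3, a ciliary factor of islets, stood at 0.17.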

How the data were processed

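The authors deposited raw counts per gene, 1 table per library, made with featureCounts 1.6.2 per the file headers (paired-end fragments, grouped by gene name, no strand option, no multi-mapping option, with the mm10 annotation of Cell Ranger 3.0.0). STAR 2.6.0c appears in the submitters' processing notes. Reads shared by near-identical genes may be lost or split, and reads of antisense neighbours cannot be told apart. Exons of 18 members share bases with another gene, at most 11.3% of their length (Cep295), and for Bbs4 3.21% and Ift88 1.45%. RNA was amplified with a low-input polyA kit without molecular identifiers, so floors of 3 counts cover counting error only.

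Counts were used as deposited. Genes passing filterByExpr (minimum count 10, minimum total 15) were scaled by TMM and tested with edgeR 4.0.16 (glmQLFit, glmQLFTest) in R 4.3.3, all genes in 1 fit, with a call at a p under 0.05 after Benjamini-Hochberg adjustment. The biological coefficient of variation was 0.264. With 2 libraries against 2, an exact permutation test of a single value cannot go below p = 0.333. Counts of 2 libraries of a group differed by more than sampling noise (chi-square per degree of freedom 39.8 in CD63 high, 78.6 in CD63 low). The scripts were tested on simulated data. Named genes were the 4 members per family with the smallest p, the highest 2 and the lowest per kilobase in each family, the 3 untested members with the most reads, and per pathway list the called genes and that with the smallest p; others were added after their values were seen. The members, lists and motifs were chosen with earlier results of these data known. Alternatives were DESeq2 1.42.0, limma 3.58.1 (voom), other scalings and filters, a length correction, a replicate block and each library left out. Values of 1 member are not reported here or drawn, although it stays in the counts and medians.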

Additional observations from a re-analysis of the deposited data

How the results depend on the processing

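Of 16 other settings, 14 called 0 members. Leaving out each library in turn gave 0 to 1 call: 1 lower (Ift122) without CD63 high replicate 1, 1 lower (Cep131) without CD63 low replicate 1, and 0 without either of the others. The members' median log2 fold change ran from -0.26 to -0.13 over these fits. It was -0.13 without CD63 low replicate 2, where that of all genes was 0.04. The number of all genes called ranged more, from 67 with scaling by library size only to 942 with a crossed block, against 369 as reported. It was 686 with DESeq2, 940 with no filter and 616 with the block. Among the fits to all 4 libraries the smallest adjusted p of a member was 0.0505 with the crossed block (edgeR), 0.0553 with no filter (edgeR) and 0.0935 with DESeq2.

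Whether the replicate numbers of the titles pair the libraries is not known. Deviations of same-numbered libraries had a correlation of -0.152 over genes, which with 2 libraries per group cannot decide it. The file headers number the CD63 low libraries otherwise, so that 1 number is shared between the groups, by CD63 high replicate 2 and CD63 low replicate 1 of the titles, as in the crossed block. With the replicate block the members' median was -0.27 and 0 were called; with the crossed block, added after seeing the data, they were -0.26 and 0. The crossed block also called 3 of the named pathway genes that no other setting called, Dync2h1 (adjusted p = 0.0428 by edgeR), Tmem231 (adjusted p = 0.0457) and Rsph1 (adjusted p = 0.0341).

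Signs were followed across the settings for the named genes only, so other members may change sign as well. Of the named estimates that changed sign, that of Cep131 was far from 0 in the full fit and the others were small. Cfap20 was 0 with RLE scaling and DESeq2, 0.02 with upper quartile scaling, and 0.01 with the stricter filter, limma-voom, the length correction, the replicate block and the crossed block, and ran from -0.2 to 0.24 with a library left out. Cep72 was 0.37 with limma-voom and 0.05 with the crossed block, and ran from -6.15 to 0.7 with a library left out, on few reads. Ift20 was -0.01 and Bbs5 -0.06 with the length correction. With a library left out Bbs5 ran from -0.1 to 0.29 and Cep131 from -1.73 to 0.11. The cause was not tested. Of the 25 Cfap genes 15 were too low to test, and low depth and absent expression cannot be told apart there.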
